A study of Homo sapiens with 6 samples.

Results

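The nuclear genes of respiratory complex I were examined in A375, an established human melanoma cell line that carries a mutant BRAF gene. They were taken as every protein-coding row of the count table whose symbol begins with NDUFA, NDUFB, NDUFC, NDUFS or NDUFV, which gave 48 of 58051 rows, and the NDUFAF assembly factors are among them. The rule reads names and no measured value, but the family was picked with earlier results of these data known. The data are RNA-seq read counts per gene from 3 libraries of cells given TGFB1 at 10 ng/mL and 3 libraries of cells given Vehicle, which was BSA at 1 mg/mL in 4 mM HCl. In both groups 2 h without serum came first, and ligand or vehicle was then present for 2 h. The series calls its replicates technical triplicates of 1 experiment, so p-values measure only the spread between these libraries. The comparison asks whether the complex I genes were among those that moved within 2 h of the ligand.

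Complex I, or NADH:ubiquinone oxidoreductase, takes electrons from NADH, passes them to ubiquinone and pumps protons across the inner mitochondrial membrane. Its hydrophilic arm reaches into the matrix and holds the flavin and iron-sulfur clusters, and its membrane arm holds the proton pumps. The core subunits of the membrane arm are encoded by mitochondrial DNA, whereas the core subunits of the hydrophilic arm and all accessory subunits are encoded in the nucleus and imported. The NDUFAF proteins help to put the complex together and are not kept in the finished enzyme.

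Library totals ran from 24713894 to 34895075 counts, and 16690 genes passed the low-count filter. SMAD7, a feedback inhibitor and early target of TGF-beta signalling, rose to 63.6, 57.1 and 62.6 CPM (read counts scaled to the adjusted total of each library) with TGFB1, against 7.81, 8.84 and 11.2 CPM in Vehicle. Of 8 melanocyte lineage markers, S100B stood at 54.6 ± 1.72 and 58.9 ± 5.74 CPM and MITF at 53.5 ± 2.01 and 62.7 ± 3.02 CPM with TGFB1 and in Vehicle (SD, n = 3 each). MITF fell (edgeR adjusted p = 0.0355), a call lost with no low-count filter (adjusted p = 0.0854) and without Vehicle replicate 1 or 2 (0.107 and 0.229) or TGFB1 replicate 1 or 3 (0.208 and 0.205). DCT stood at 3.57 ± 0.502 CPM with TGFB1 and 5.08 ± 1.11 CPM in Vehicle (unadjusted p = 0.014, adjusted p = 0.21). SOX10 was listed at 0 counts. In the gene annotation used here, 2.40% of its exonic bases and 0% of its coding bases lie under exons of another gene, POLR2F. Why SOX10 had no reads was not tested, and the 0 does not show that its transcript was absent. PMEL, TYR and TYRP1 were under 1 CPM in both groups. MLANA was also under 1 CPM, at 0.502 ± 0.111 CPM with TGFB1 and 0.262 ± 0.0562 CPM in Vehicle, without overlap (log2 fold change 0.94, adjusted p = 0.563), and 6 markers of blood, endothelial, epithelial and fibroblast cells were all under 0.5 CPM.

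No complex I member passed the test. Of the 48, 47 passed the low-count filter, and of these 0 were higher and 0 lower with TGFB1. The test was the quasi-likelihood F-test of edgeR with p-values adjusted over all genes by Benjamini-Hochberg, and at its threshold of 0.05, 3.31% of all tested genes were called, 2.43% higher and 0.887% lower. DESeq2 and limma-voom also called 0 members. At an unadjusted p under 0.05 there was 1 member, NDUFA8, which is 2.13% of those tested, against 12.3% of all tested genes. For 5 members each TGFB1 library lay on one side of all Vehicle libraries, NDUFA8, NDUFB10, NDUFS8 and NDUFV3 higher and NDUFA2 lower, which is 10.6% of the members, against 16.4% of all tested genes. The median log2 fold change of the members was 0.006, with 24 above and 23 below 0, and over all tested genes it was -0.007. Its median size was 0.05 in the members and 0.105 over all tested genes. This scale was not matched for read depth.

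The spread between these libraries also limits how large a change in each gene could go unseen. Intervals from technical triplicates of 1 experiment do not bound the effect of TGFB1 beyond it. Each interval covers 1 gene and not all members jointly. The 95% interval of the log2 fold change lay inside ±0.25 for 36 of the 47 members and inside a change of 1.5-fold in either direction for 43. Over all 16690 tested genes these counts were 5548 and 10715, and the comparison was not matched for read depth. For the 43 members with at least 100 counts in every library, a line drawn after the values were seen, the intervals ran from -0.32 to 0.35 on the log2 scale, that is from 0.803-fold to 1.28-fold. The other 4 tested members, NDUFV2, NDUFA7, NDUFA13 and NDUFA4L2, had fewer reads and intervals as wide as -0.77 to 1.38, the interval of NDUFA7. In bulk RNA, fewer cells with a transcript and less of it in each cell cannot be told apart.

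**Figure D1:**
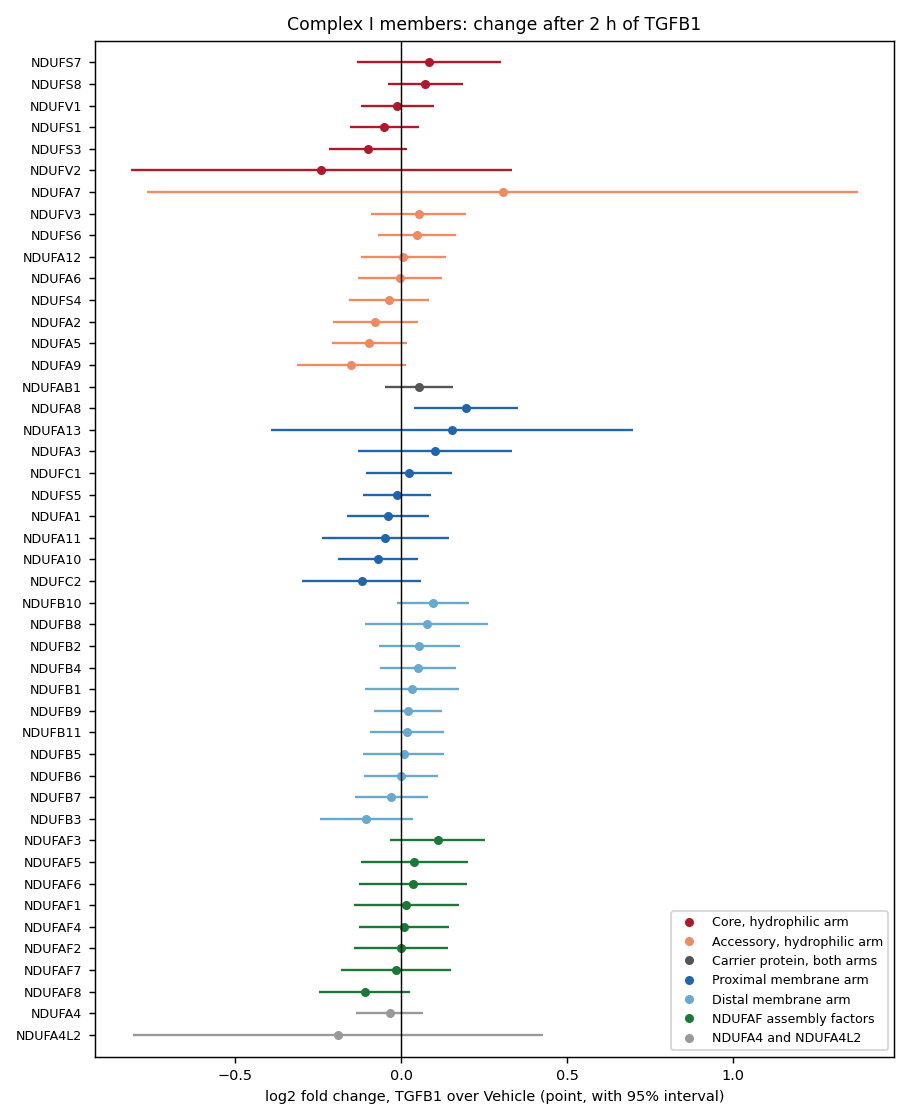
Log2 fold change of 46 of the 47 tested complex I members, TGFB1 over Vehicle, on the x axis, with points for the fitted values and lines for their 95% intervals, grouped by role (n = 3 libraries each). All intervals but that of NDUFA8 span 0, and the widest belong to NDUFA7, NDUFV2, NDUFA4L2 and NDUFA13.

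The nuclear core subunits carry the path of the electrons. NDUFV1, which binds the flavin and NADH, had 154.2, 160.4 and 161.3 CPM with TGFB1, against 171.4, 149.8 and 158.8 CPM in Vehicle. The TGFB1 libraries lay inside the Vehicle range, and the log2 fold change was -0.01 ± 0.05 (SE, edgeR adjusted p = 0.97). NDUFS1, the largest core subunit and a holder of iron-sulfur clusters, had 172.1, 184.3 and 171.0 CPM with TGFB1, against 183.6, 188.7 and 174.1 CPM in Vehicle, with overlap between the groups (log2 fold change -0.05 ± 0.05, adjusted p = 0.781).

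NDUFS3, a core subunit of the ubiquinone module, had 80.7, 83.7 and 82.2 CPM with TGFB1, against 82.2, 93.4 and 88.7 CPM in Vehicle (log2 fold change -0.10 ± 0.06, edgeR adjusted p = 0.523). Vehicle replicate 1 was the Vehicle library that met the TGFB1 range. NDUFS8, which holds the iron-sulfur clusters that lead to the last one, had 84.8, 87.9 and 84.3 CPM with TGFB1, against 81.2, 82.4 and 80.8 CPM in Vehicle. Every TGFB1 library was above every Vehicle library, but the difference did not pass the test (log2 fold change 0.07 ± 0.06, adjusted p = 0.675). NDUFS7, which carries the last cluster before ubiquinone, had 15.3, 14.4 and 13.5 CPM with TGFB1, against 12.9, 13.5 and 14.3 CPM in Vehicle (log2 fold change 0.08 ± 0.11, adjusted p = 0.842).

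NDUFV2, a core subunit that holds a cluster near the flavin, was scarcely counted. It had 49, 50 and 69 reads with TGFB1, against 39, 73 and 68 reads in Vehicle, and the groups overlapped (log2 fold change -0.24 ± 0.28, adjusted p = 0.821). Its row on chromosome 18 (9102630 to 9134345, plus strand, GENCODE 29 on GRCh38) had fewer reads than its processed pseudogene NDUFV2P1 in every TGFB1 library, which had 60, 96 and 73 reads with TGFB1, against 29, 80 and 74 reads in Vehicle. How its exons are annotated is given with the levels.

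Of the 9 accessory subunits of the hydrophilic arm, 4 lay above and 5 below 0. NDUFA9, which sits where the arm meets the membrane, had 27.65, 29.40 and 27.37 CPM with TGFB1, against 32.56, 32.26 and 29.02 CPM in Vehicle, with overlap through TGFB1 replicate 2 and Vehicle replicate 3. Its log2 fold change of -0.15 ± 0.08 (SE, edgeR adjusted p = 0.478) was the lowest among members with at least 100 counts in every library. NDUFA5, a small accessory subunit of the ubiquinone module, had 113.3, 123.5 and 113.3 CPM with TGFB1, against 129.5, 126.9 and 118.1 CPM in Vehicle (log2 fold change -0.10 ± 0.06, adjusted p = 0.52). TGFB1 replicate 2 was the library that reached into the Vehicle range. NDUFA7, a small accessory subunit, had 14, 18 and 20 reads with TGFB1, against 8, 15 and 15 reads in Vehicle (log2 fold change 0.31 ± 0.53, adjusted p = 0.895). NDUFA2, with a fold like that of thioredoxin, had 55.6, 53.6 and 52.8 CPM with TGFB1, against 57.1, 57.95 and 56.1 CPM in Vehicle, without overlap (-0.08 ± 0.06, adjusted p = 0.693). NDUFV3, a subunit beside the flavin module, had 40.1, 41.7 and 40.1 CPM with TGFB1, against 39.6, 38.8 and 39.2 CPM in Vehicle, also without overlap (0.05 ± 0.07, adjusted p = 0.853). Neither difference passed the test. NDUFS4 and NDUFS6, whose loss causes complex I deficiency in people, had log2 fold changes of -0.04 and 0.05, NDUFA12, the paralog of the assembly factor NDUFAF2, 0.01, and NDUFA6 -0.005. NDUFAB1, the mitochondrial acyl carrier protein, which is present in both arms, had 164.2 ± 3.24 CPM with TGFB1 and 158.3 ± 4.93 CPM in Vehicle (SD, n = 3 each, adjusted p = 0.764).

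The proximal membrane arm, with 9 members, held the sole one with an unadjusted p under 0.05. NDUFA8, an accessory subunit with disulfide-linked helices on the intermembrane side, had 41.35, 40.73 and 42.23 CPM with TGFB1, against 31.99, 36.90 and 39.42 CPM in Vehicle. Every TGFB1 library was above every Vehicle library, but Vehicle spread more than TGFB1 and its replicate 1 lay lowest. The log2 fold change was 0.20 ± 0.08 (SE), with an interval from 0.04 to 0.35, an unadjusted p of 0.0164 and an adjusted p of 0.23 by edgeR. It passed the threshold without Vehicle replicate 3 (log2 fold change 0.26, adjusted p = 0.0399), and without Vehicle replicate 1 the log2 fold change was 0.12 (adjusted p = 0.644). NDUFS5, another disulfide-linked subunit, had 208.0, 230.1 and 212.9 CPM with TGFB1, against 212.7, 222.6 and 221.5 CPM in Vehicle (log2 fold change -0.01 ± 0.05, adjusted p = 0.964). NDUFA1, NDUFA3, NDUFA10, NDUFA11, NDUFC1 and NDUFC2 lay between -0.12 and 0.10 on the log2 scale, with adjusted p-values from 0.651 to 0.946. NDUFA13, also known as GRIM-19, had 77, 63 and 67 reads with TGFB1, against 52, 61 and 52 reads in Vehicle (log2 fold change 0.15 ± 0.27, adjusted p = 0.897).

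The distal membrane arm, which surrounds the farthest proton pumps, held all 11 NDUFB members, 8 above and 3 below 0. Their log2 fold changes ran from -0.11 for NDUFB3 to 0.09 for NDUFB10. NDUFB10, a further disulfide-linked subunit, had 125.2, 130.3 and 123.7 CPM with TGFB1, against 113.0, 120.9 and 121.1 CPM in Vehicle (log2 fold change 0.09 ± 0.05, edgeR adjusted p = 0.509). Its groups did not overlap. NDUFB7 had 107.3, 104.8 and 112.0 CPM with TGFB1, against 107.6, 108.6 and 114.5 CPM in Vehicle, with overlap (log2 fold change -0.03 ± 0.05, adjusted p = 0.899).

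The 8 NDUFAF assembly factors lay between -0.11 (NDUFAF8) and 0.11 (NDUFAF3) on the log2 scale, 5 above and 3 below 0. NDUFAF3, which acts early in the assembly of the hydrophilic arm with NDUFAF4, had 55.87, 52.11 and 49.82 CPM with TGFB1, against 52.00, 44.42 and 49.96 CPM in Vehicle, with overlap (log2 fold change 0.11 ± 0.07, edgeR adjusted p = 0.593). NDUFAF1, an early membrane-arm factor, NDUFAF5 and NDUFAF7, which modify core subunits, and NDUFAF2, a late-stage factor, had log2 fold changes from -0.01 to 0.04.

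Some genes carry the name without being lasting parts of complex I. NDUFA4, now assigned to complex IV, had 227.5, 245.3 and 224.6 CPM with TGFB1, against 241.4, 241.3 and 232.0 CPM in Vehicle (log2 fold change -0.04 ± 0.05, edgeR adjusted p = 0.861). NDUFA4L2, its hypoxia-induced paralog, had 43, 45 and 56 reads with TGFB1, against 51, 46 and 48 reads in Vehicle, with overlap (log2 fold change -0.19 ± 0.30, adjusted p = 0.885). Without Vehicle replicate 1 its log2 fold change was -7.8e-05. NDUFC2-KCTD14, a readthrough transcript gene, was the member that did not pass the filter and was listed at 0 counts in all 6 libraries. All of its exonic bases lie under exons of other genes, NDUFC2 and KCTD14, in GENCODE 29.

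**Figure D2:**
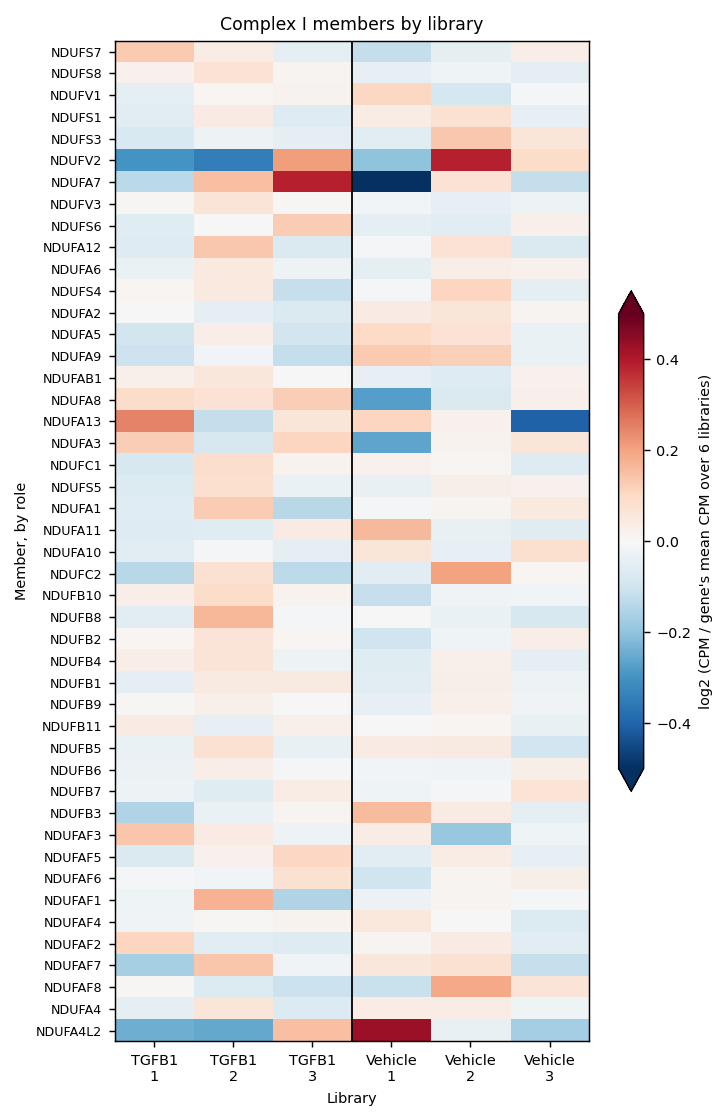
Level of 46 of the 47 tested complex I members (rows, by role) in each library (columns), as the log2 of its CPM over its mean CPM in 6 libraries, with colour clipped at ±0.5. The strongest colours fall on NDUFA7, NDUFV2, NDUFA13 and NDUFA4L2, the 4 members with the fewest reads, and NDUFA8 is red in the TGFB1 columns and blue in Vehicle replicates 1 and 2.

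Levels between members were compared per length, as mean CPM over 6 libraries per kilobase of merged exons, a scale that depends on how many long isoforms the annotation lists. NDUFS5 was highest at 397.7 CPM per kb and NDUFB7 followed at 205.5 CPM per kb. NDUFA7 was lowest at 0.332 CPM per kb, below NDUFA4L2 at 0.553 CPM per kb, NDUFV2 at 0.676 CPM per kb and NDUFA13 at 0.729 CPM per kb. The median of the 47 was 21.6 CPM per kb. By role, the median level was 18.5 CPM per kb in the core subunits, 37.3 CPM per kb in the accessory subunits of the hydrophilic arm, 10.7 CPM per kb in the proximal membrane arm, 44.4 CPM per kb in the distal membrane arm and 19.6 CPM per kb in the NDUFAF factors. Between libraries of a group, the median coefficient of variation of a member was 4.21% with TGFB1 and 4.24% in Vehicle.

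NDUFV2, NDUFA7 and NDUFA13 share a feature of the annotation. In GENCODE 29, 84.7% of the coding bases of NDUFV2, 78.3% of those of NDUFA7 and 55.2% of those of NDUFA13 also lie under an exon of another gene on the same strand. The NDUFV2 partner AP005263.1, the NDUFA7 partner AC010323.1 and the NDUFA13 partner AC011448.1 run across these genes. They had between 0 and 10 reads in any library. Exons of RPS28 also overlap NDUFA7, and those of YJEFN3, with 52 to 120 reads per library, overlap NDUFA13. Counting by gene can drop a read that falls on exons of several genes, but neither the counting mode nor the annotation release is given in the sources used here. Whether such sharing set these counts was not tested, and the low levels say little about the amount of these transcripts. NDUFB8 (85.2% of coding bases), NDUFC2 (76.9%) and NDUFA9 (67.9%) were also shared over more than 50%, and they stood at 10.8, 10.7 and 2.86 CPM per kb. The median level was 1.79 CPM per kb over the 6 members with over 50% of coding bases shared and 31.5 CPM per kb over the other 41. NDUFA4L2, with no coding base shared, was low as well.

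**Figure D3:**
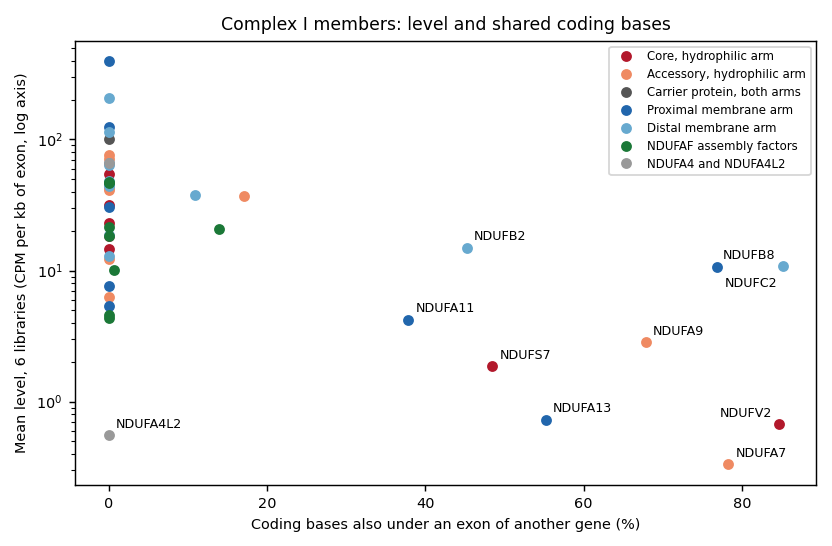
Mean level of each of 47 tested complex I members in CPM per kb of exon (y axis, log scale) against the share of its coding bases that also lie under an exon of another gene in GENCODE 29 (x axis, percent). NDUFV2, NDUFA7 and NDUFA13 lie low at 84.7%, 78.3% and 55.2%, while NDUFS5, with none shared, lies highest. NDUFB8 (85.2%), NDUFC2 (76.9%) and NDUFA9 (67.9%) lie at 10.8, 10.7 and 2.86 CPM per kb. NDUFA4L2, with no coding base shared, lies at 0.553 CPM per kb.

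Processed pseudogenes are a second source of uncertainty for this family. The table held 59 pseudogene rows with member-like names, 25 of them with at least 1 read. Their 595 reads over all libraries came to 0.0896% of those of the members, a share pooled over members. Of these reads, NDUFV2P1 had 60, 96 and 73 with TGFB1, against 29, 80 and 74 in Vehicle. It had more reads than NDUFV2 in every library but Vehicle replicate 1. Reads that match a member and a copy equally could be lost or placed in either row.

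NRF1, YY1 and GABPA are transcription factors known to act at nuclear genes of the respiratory chain. The promoters of NDUFA8, NDUFA9 and NDUFS3 are shown because these members had some of the smallest p-values in their direction and each holds a word of 1 of these factors. Each is the 300-base window from 250 bases before to 50 bases after the start of transcription (RefSeq, GRCh38.p14), 5′ to 3′ on the strand of the gene. Capitals mark the NRF1 word CGCATGCGC in NDUFA8 (chr9:122159730-122160029, minus strand), the YY1 word AAGATGGCG in NDUFA9 (chr12:4648864-4649163, plus strand) and the ETS word CCGGAAG, bound by GABPA, in NDUFS3 (chr11:47578824-47579123, plus strand), on either strand.
NDUFA8: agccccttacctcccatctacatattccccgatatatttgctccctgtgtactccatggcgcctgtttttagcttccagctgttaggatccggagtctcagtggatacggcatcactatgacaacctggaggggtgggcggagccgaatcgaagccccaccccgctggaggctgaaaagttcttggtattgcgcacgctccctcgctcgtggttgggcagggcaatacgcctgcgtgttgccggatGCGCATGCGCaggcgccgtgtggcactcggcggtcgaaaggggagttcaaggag
NDUFA9: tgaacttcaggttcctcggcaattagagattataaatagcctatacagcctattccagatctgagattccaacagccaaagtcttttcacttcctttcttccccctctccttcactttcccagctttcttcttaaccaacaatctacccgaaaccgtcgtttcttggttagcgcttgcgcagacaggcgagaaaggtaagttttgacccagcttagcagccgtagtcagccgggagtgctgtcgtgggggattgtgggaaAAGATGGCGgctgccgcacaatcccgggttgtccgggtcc
NDUFS3: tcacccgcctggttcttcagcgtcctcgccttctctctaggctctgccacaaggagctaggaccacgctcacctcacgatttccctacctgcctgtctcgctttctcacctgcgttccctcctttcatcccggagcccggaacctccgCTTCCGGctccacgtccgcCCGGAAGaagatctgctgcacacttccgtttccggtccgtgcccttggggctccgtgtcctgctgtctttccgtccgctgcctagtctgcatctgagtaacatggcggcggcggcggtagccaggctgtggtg
In NDUFA8 the word occurs on both strands in an overlapping pair across the start site, and in NDUFS3 it occurs once on each strand. In NDUFA9 it runs from base 11 to base 19, counting the start as base 1.

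RefSeq windows were matched for 40 of the 48 members by symbol. The NRF1 word was present for 6 of the 40 (15%), NDUFA5, NDUFA8, NDUFAF5, NDUFB4, NDUFS6 and NDUFS7, against 2.34% of 27305 genes with a window. The YY1 word, which was shortened after a first search, was present for 7 (17.5%), NDUFA6, NDUFA7, NDUFA9, NDUFAF8, NDUFB8, NDUFS4 and NDUFS7, against 2.14% of all. The ETS word was present for 7 (17.5%), NDUFA1, NDUFA13, NDUFAF4, NDUFAF8, NDUFB7, NDUFS1 and NDUFS3, against 12.2% of all. The SMAD palindrome GTCTAGAC was present for 0 of the 40 and for 0.256% of all genes. It is so rare that 0 in a set of 40 windows or fewer does not show a lack of such sites. The 8 matched windows of the 10 genes on a TGF-beta feedback list had 0 as well. All 10 rose, but the list was chosen with earlier results of these data known. The 27305 genes with a window outnumber the 16690 tested for expression and were not matched to the members. The difference in shares was not tested, so it does not show that a word is more common here than in comparable genes. A word match is a description of these windows and does not show that a factor binds there.

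The genes of complex I that lie on mitochondrial DNA were lower with TGFB1. Of 7, 5 fell and 0 rose, with 4 to 6 falling and 0 rising over the alternatives. Of all tested genes, 0.887% were called lower. MT-ND5, a proton pump subunit, had 66.6, 58.4 and 65.5 CPM with TGFB1, against 84.3, 97.8 and 104.4 CPM in Vehicle (log2 fold change -0.59 ± 0.07, SE, edgeR adjusted p = 4.63e-07). MT-ND4, another pump, had 38.6, 34.4 and 38.2 CPM with TGFB1, against 50.1, 50.3 and 58.0 CPM in Vehicle (-0.51 ± 0.07, adjusted p = 8.3e-06). Neither gene's groups overlapped. MT-ND6 fell by 0.79 on the log2 scale (adjusted p = 4.15e-06), MT-ND1 fell by 0.59 (adjusted p = 9.43e-05) and MT-ND2 fell by 0.64 (adjusted p = 0.00849), a call that MT-ND2 lost without TGFB1 replicate 2 or 3 (adjusted p = 0.0526 and 0.0786). MT-ND4L and MT-ND3 had log2 fold changes of -0.49 (adjusted p = 0.0615) and -0.09 (adjusted p = 0.81), and MT-ND4L passed without Vehicle replicate 1 (adjusted p = 0.0117), with upper-quartile scaling (0.0487) and with no low-count filter (0.0459). MT-ND2, MT-ND3 and MT-ND4L were named after their values were seen.

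Summed over the 48 nuclear members, the level was 3438, 3597 and 3446 CPM with TGFB1, against 3498, 3550 and 3483 CPM in Vehicle, and the groups overlapped. Summed over the 7 mitochondrial genes it was 184.8, 158.4 and 171.7 CPM with TGFB1, against 232.0, 242.4 and 275.2 CPM in Vehicle, without overlap. Reads of nuclear members outnumbered those of mitochondrial genes by 18.6, 22.7 and 20.1 times with TGFB1, against 15.1, 14.6 and 12.7 times in Vehicle. These sums are a description, and the difference between the gene sets was not tested. The labels' protocols describe depletion of ribosomal RNA. Mitochondrial ribosomal RNA had 7665, 4955 and 8350 CPM with TGFB1, against 21660, 12385 and 6793 CPM in Vehicle, with overlap. Neither of its genes passed the test (edgeR adjusted p = 0.529 for MT-RNR1 and 0.611 for MT-RNR2). Vehicle replicates 1 and 2 lay above all TGFB1 libraries for this ribosomal RNA, and Vehicle replicate 3 lay within the TGFB1 range. For the MT-ND sum, Vehicle replicate 3 was highest of all libraries. The part of ribosomal RNA in the fall of the MT-ND genes was not tested. GENCODE 29 rows in the table include 214 nuclear pseudogenes of MT-ND genes, with 833 reads in all against 39773 for the genes themselves, and how many MT-ND reads were lost or placed in a copy was not measured.

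**Figure D4:**
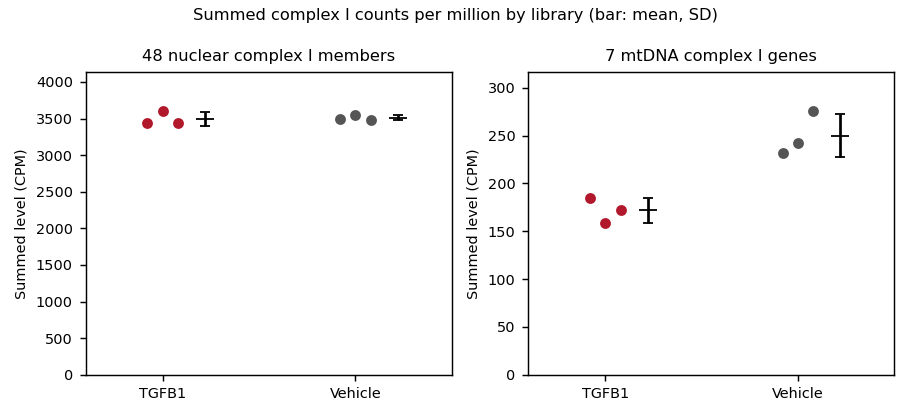
Summed CPM per library of the 48 nuclear complex I members (left panel) and of the 7 mitochondrial-DNA complex I genes (right panel), with 3 points per group and bars for the mean ± SD. The nuclear sums overlap, between 3438 and 3597 CPM with TGFB1 and between 3483 and 3550 CPM in Vehicle, while the mitochondrial sums lie between 158.4 and 184.8 CPM with TGFB1 and between 232.0 and 275.2 CPM in Vehicle.

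Other nuclear genes of the respiratory chain were read against the 3.31% of all tested genes that passed and the 12.3% with an unadjusted p under 0.05. Of 11 complex I assembly genes outside the family 0 passed the test, and the most abundant, TIMMDC1, had a log2 fold change of 0.03 (edgeR adjusted p = 0.918). Of 8 complex II genes 0 passed (SDHB, log2 fold change -0.04, adjusted p = 0.814), of 9 complex III genes 0 passed (UQCRH, log2 fold change -0.05, adjusted p = 0.782), and of 10 complex IV genes 0 passed (COX7C, log2 fold change -0.03, adjusted p = 0.876). At an unadjusted p under 0.05 these 4 lists had 0, 0, 1 and 0 genes. Of 15 ATP synthase genes 2 rose and 0 fell. ATP5MC3, a gene for the proton-carrying ring, had 173.0, 166.9 and 171.1 CPM with TGFB1, against 139.7, 143.9 and 158.2 CPM in Vehicle (log2 fold change 0.21 ± 0.05, SE, edgeR adjusted p = 0.0181). ATP5F1D, the delta subunit of the central stalk, had 27.07, 29.58 and 28.72 CPM with TGFB1, against 21.76, 21.98 and 23.96 CPM in Vehicle (0.33 ± 0.09, adjusted p = 0.0181). Both lost the call without Vehicle replicate 1 (adjusted p = 0.119 for ATP5MC3 and 0.0646 for ATP5F1D), Vehicle replicate 2 (0.129 and 0.107) or TGFB1 replicate 3 (0.0949 and 0.0927), ATP5MC3 also without TGFB1 replicate 1 (0.136) and ATP5F1D without TGFB1 replicate 2 (0.101).

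Of 12 regulators of mitochondrial biogenesis 0 passed the test, and 1 had an unadjusted p under 0.05. It was PPRC1, named after its values were seen, with a log2 fold change of 0.24 ± 0.09 (SE, edgeR unadjusted p = 0.00794, adjusted p = 0.15). PPRC1 had 32.7 ± 2.27 CPM with TGFB1 and 27.5 ± 2.83 CPM in Vehicle (SD, n = 3 each), with overlap. TFAM, which packages mitochondrial DNA and acts in its transcription, had 196.7 ± 9.85 CPM with TGFB1 and 196.5 ± 5.30 CPM in Vehicle (SD, n = 3 each, edgeR adjusted p = 0.997). The 10 genes of the TGF-beta feedback list, which also holds the transcription factors JUNB and BHLHE40, all rose. Their log2 fold changes ran from 0.34 to 3.29 with a median of 1.36, whereas the median of the complex I members was 0.006. The list was chosen with earlier results of these data known, so its rise is a description and not a test.

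**Figure D5:**
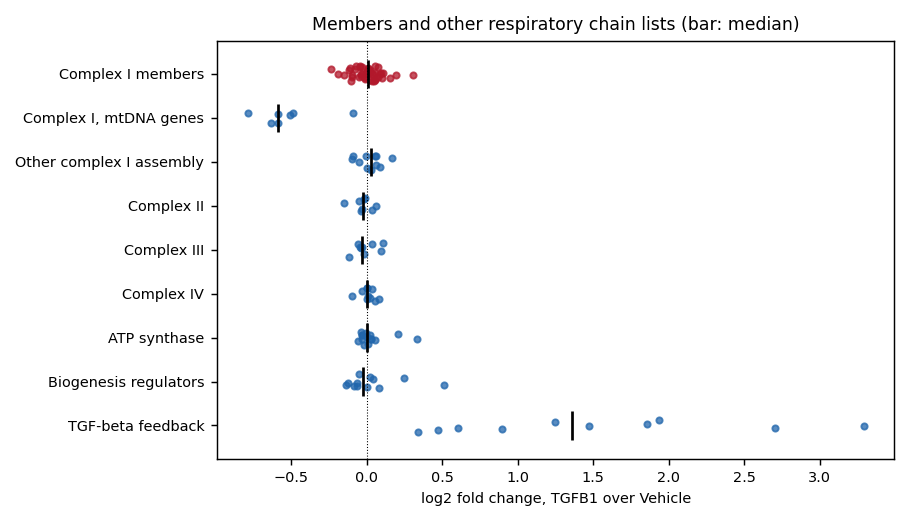
Log2 fold change of each tested gene, TGFB1 over Vehicle (x axis), for the complex I members (47 points) and 8 other lists, with a bar at each list's median. The members gather around 0, 5 of the 7 mitochondrial-DNA genes of complex I passed the test as lower, and the TGF-beta feedback list lies from 0.34 to 3.29. The lists were chosen with earlier results of these data known.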

How the data were processed

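RNA depleted of ribosomal RNA, per the labels' protocols, was sequenced from 6 libraries of A375 cells, 3 given TGFB1 and 3 given Vehicle, grouped by their labels. The authors deposited raw read counts per Ensembl gene. Per the submitters' processing notes, cutadapt, TopHat2 2.1 and HTSeq were used on GRCh38; neither annotation release nor counting mode nor strand setting is given in the sources used here. The molecule label is polyA RNA, which differs from the depletion protocol.

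Symbols, gene types, exon lengths and positions came from GENCODE 29 by gene ID, which named 57447 of 58051 rows. Counts were filtered with filterByExpr (minimum count 10, minimum total 15), scaled by TMM and tested with edgeR 4.0.16 (quasi-likelihood F-test, robust; R 4.3.3) over all 16690 genes, with Benjamini-Hochberg adjustment and a threshold of 0.05. The SE is the absolute log2 fold change over the square root of F, and intervals are 95%. CPM uses TMM-scaled library sizes. The fit was checked on simulated counts. Intervals cover the spread between these libraries alone, and totals of 24713894 to 34895075 counts set the counting error.

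The members and lists were chosen with earlier results of these data known. Each member may be named; full values go to members past the threshold, the 3 smallest p-values in each direction, the core subunits, the 2 highest and 2 lowest levels per length, NDUFA4 and NDUFA4L2. The values of 1 member are not reported here by name; it is kept in counts, medians and sums. The YY1 word was shortened by 1 letter after a first search. From other lists come up to 4 genes past the threshold by p, or else the most abundant. Alternatives were other scalings and filters, removal of the 100 most abundant genes, DESeq2 1.42.0, limma-voom (limma 3.58.1), a replicate block and leaving out each library. Replicate numbers did not pair the libraries.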

Additional observations from a re-analysis of the deposited data

How the results depend on the processing

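The 0 calls among complex I members held under DESeq2 size factors, upper-quartile scaling, total counts, both other filters, removal of the 100 most abundant genes, DESeq2, limma-voom and the replicate block, with the smallest member adjusted p between 0.171 and 0.283. Leaving out 1 library, the calls ranged from 0 to 1 (NDUFA8, without Vehicle replicate 3) and the members at an unadjusted p under 0.05 from 0 (without TGFB1 replicate 3) to 4 (without Vehicle replicate 3), against 1 with all libraries. The members' median log2 fold change stayed between -0.017 and 0.023 in all settings. Over all genes, the calls ranged from 365 to 923 when 1 library was left out, those higher from 264 to 683 and those lower from 97 to 240 (the high ends without Vehicle replicate 3, the low ends without TGFB1 replicate 1, or 3 for those lower), against 553, 405 and 148 with all libraries. With the replicate block 601 genes and 0 members were called, so the block changed no member's call; same-numbered libraries had correlations of -0.0577, 0.0642 and 0.0489 in their deviations, and the libraries share only a number. Of the 17 members with full values, 2 changed sign, neither past the threshold. Leaving out 1 library, NDUFV1 ranged from -0.056 to 0.041 (above 0 without Vehicle replicate 1 or TGFB1 replicate 1) and NDUFS5 from -0.054 to 0.018 (above 0 without Vehicle replicate 2 or TGFB1 replicate 1 or 3), against -0.01 for each with all libraries; the cause was not tested. NDUFA8 had 0.26 without Vehicle replicate 3. Values that did not pass also moved by over 1.5 times when 1 library was left out: NDUFA4L2 ranged from -0.34 to -7.8e-05, NDUFV2 from -0.44 to -0.08, NDUFA7 from 0.17 to 0.44, NDUFS3 from -0.14 to -0.06, NDUFAF3 from 0.05 to 0.16, NDUFS7 from 0.04 to 0.13, NDUFA8 from 0.12 to 0.26, NDUFS1 from -0.08 to -0.02, NDUFA4 from -0.07 to -0.01 and NDUFB7 from -0.06 to -0.0008. Few reads were counted for NDUFV2, NDUFA7, NDUFA13 and NDUFA4L2, and their intervals reach beyond 1.5-fold.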
